A study of Homo sapiens with 6 samples.

Results

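The genes described here are 10 genes of the integrated stress response: ATF4, its partner and target DDIT3, and TRIB3, CHAC1, ASNS, PSAT1, PHGDH, SESN2, DDIT4 and PPP1R15A. They were chosen by name, and every probe set that the platform annotation gives to one of them alone was taken. This gave 24 of the 44988 single-gene probe sets on the arrays, and 10 of the 18132 genes they measure. All 10 were measured, and no filter on dim genes was used. Total RNA of cells labelled HCT116, a human colorectal carcinoma line, was hybridised to 6 Affymetrix arrays, 3 labelled Ctrl and 3 labelled CSF3. All cells were grown in RPMI-1640 medium with fetal bovine serum and antibiotics. CSF3 is granulocyte colony-stimulating factor. The labels give neither the way in which the cells were exposed to it or made to express it, nor a dose, a time or what the Ctrl cells received. Nothing in the labels says that the arrays of a group stand for separate cultures, so the p-values measure the spread between these arrays, which may be technical.

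The integrated stress response starts with kinases that phosphorylate the translation factor eIF2 when amino acids run short, proteins misfold in the endoplasmic reticulum, haem is lacking or viral RNA is present. General translation then drops, while ribosomes reach the coding sequence of ATF4 more often, because short reading frames ahead of it are bypassed. ATF4 protein, a basic leucine zipper factor, binds C/EBP-ATF response elements and raises genes of amino acid synthesis and transport, of glutathione turnover, of mTORC1 inhibition and of the dephosphorylation of eIF2. Since ATF4 is controlled largely by translation, its RNA level does not measure its protein.

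A C/EBP-ATF response element was searched for as TGATGNAA on both strands in the 250 bases before each start site (promoter sequences of RefSeq, build GRCh38.p14, 15 start sites for the 10 genes, all of which matched by symbol). It was found for 2 of the 10 genes, CHAC1 and ASNS, against 3.89% of the 27305 genes in the table. Counted by window, 3.14% of all 35116 windows hold it. Both stretches are shown because the 2 genes read differently on the arrays, and the stretch of ATF3, another target of the pathway named below, is shown beside them. Each is 50 bases long and lies wholly before the start site, 5′ to 3′ along the gene, with the match in capitals.
CHAC1: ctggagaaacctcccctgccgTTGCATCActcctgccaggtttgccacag
ASNS: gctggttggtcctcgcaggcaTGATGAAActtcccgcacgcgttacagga
ATF3: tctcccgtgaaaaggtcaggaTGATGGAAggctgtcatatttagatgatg
The CHAC1 stretch is chr15:40953241-40953290 on the plus strand, and its match, which reads TGATGNAA on the opposite strand, begins 209 bases before the start site. The ASNS stretch is chr7:97872448-97872497 on the minus strand, with the match beginning 68 bases before the start. The ATF3 stretch is chr1:212565195-212565244 on the plus strand, with the match 191 bases before the start of one of its transcripts. The ER stress response element, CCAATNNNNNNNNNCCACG, was found for 0 of the 10 genes and in 0.074% of all windows. A match describes the letters of a window and does not by itself show binding.

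The arrays of a group were closely alike, with Pearson's r over probe sets of at least 0.994 within a group and 0.970 to 0.974 between groups. The groups also differed in measures of the arrays themselves: the 3′ minus 5′ signal of GAPDH, a sign of RNA integrity and labelling, was 0.31 ± 0.0067 on Ctrl and 0.68 ± 0.0026 on CSF3 arrays (log2, SD, n = 3, exact two-sided permutation p = 0.1, the smallest that 3 against 3 arrays allow). That of ACTB was 1.34 ± 0.034 on Ctrl and 1.94 ± 0.017 on CSF3 arrays (log2, SD, n = 3, exact two-sided permutation p = 0.1). The part of these differences in the results below was not tested. The difference between groups also varied with the level of a gene: its median was 0.36 for genes with a mean log2 signal of 2 to 3 and -0.20 for those of 6 to 7. The gene for CSF3 itself read higher on the CSF3 arrays, by 1.12 ± 0.14 on the log2 scale (limma adjusted p = 0.000371). The labelled cell type was not borne out by all of its markers. Of 9 markers of colorectal epithelium, KRT18 (mean log2 signal 7.37) and KRT8 (5.72) were bright, while EPCAM (3.46), KRT19 (2.84), CDH1 (2.22) and VIL1 (1.56) lay below 4.46, the median of all genes. EPCAM, KRT19 and CDH1 are usually strong in epithelial lines of the colon, and the cells are therefore called by their label here. The 12 measured markers of leukocytes, fibroblasts and endothelium had mean signals of 1.36 to 4.13. Their summed signal read higher on the CSF3 arrays for each of these 3 cell types, for leukocytes 4.57 to 4.74 against 4.21 to 4.38. The summed signal of the 9 epithelial markers read lower, at 8.15 to 8.20 against 8.23 to 8.25. Of these 9, 5 rose and 2 fell, KRT8 by 1.32 ± 0.088 and EPCAM by 0.33 ± 0.067 (limma adjusted p of 2.98e-05 and 0.00382). The part of these marker shifts in the results below was not tested. As everywhere below, a signal of bulk RNA cannot tell fewer cells with a transcript from less of it per cell.

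Among the members, more genes read higher than lower on the CSF3 arrays, but all changes were small. In the limma fit over all genes, with 1 probe set (the brightest) per gene and a Benjamini-Hochberg adjusted p under 0.05 as the threshold, 6 of the 10 rose, namely ATF4, CHAC1, PHGDH, SESN2, DDIT4 and PPP1R15A. The 2 that fell were DDIT3, whose call was lost after quantile and cyclic loess normalization, and TRIB3. ASNS and PSAT1 did not pass the test. Of all genes 45.4% rose and 27.1% fell by the same rule, and among genes above the median level, where all 10 members lie, 27.1% rose and 46.8% fell. The groups did not overlap for any of the 10 members, as was so for 76.2% of all genes. The median change of the members was 0.20, against 0.16 over all genes and -0.13 over those above the median level. The median absolute change was 0.26 for the members and 0.35 for all genes, and 0 of the 10 changed at least 2-fold (4.02% of all genes did, with an adjusted p under the threshold), although 8 of them had an unadjusted limma p under 0.05.

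**Figure D1:**
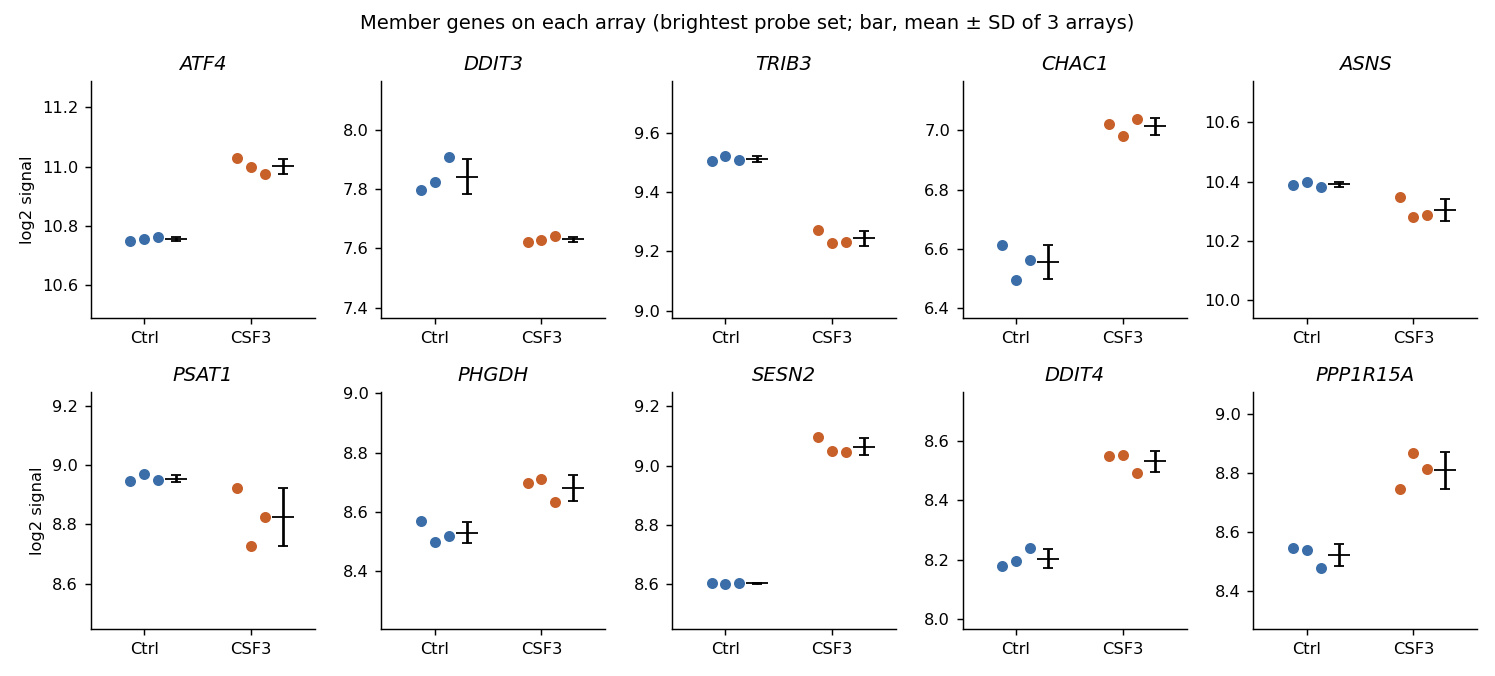
Log2 signal of the brightest probe set of each member on the 3 Ctrl (blue) and 3 CSF3 (orange) arrays, with the mean ± SD of the 3 arrays as a bar beside the points; each panel spans the same range of 0.8 on the log2 axis. The 2 groups of points do not overlap in any panel, and the widest gaps are those of SESN2 and CHAC1.

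ATF4, the transcription factor at the centre of the response, was among the brightest genes of the arrays. Its single probe set read 10.75, 10.75 and 10.76 on the Ctrl arrays and 11.03, 11.00 and 10.98 on the CSF3 arrays. The CSF3 arrays were the higher ones throughout, and the difference of 0.25 ± 0.048 on the log2 scale (1.19-fold, limma adjusted p = 0.0030) was larger than the spread within either group. Genes with a mean signal of 10 to 11 had a median change of -0.04, so ATF4 read above most genes as bright as itself. The probe set ends in _x_at, which marks probes that may also hybridise with other transcripts.

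DDIT3 encodes CHOP, a C/EBP family factor that pairs with ATF4 and can lead stressed cells into apoptosis. It went the other way. Its brighter probe set read 7.79, 7.82 and 7.91 on the Ctrl arrays and 7.62, 7.63 and 7.64 on the CSF3 arrays. All CSF3 values were below all Ctrl values, and the change was -0.21 ± 0.053 (limma adjusted p = 0.00911). The second probe set read 7.66, 7.67 and 7.69 against 7.53, 7.59 and 7.59, and its change of -0.10 ± 0.055 was not called over all probe sets (limma adjusted p = 0.137). Genes with mean signals of 7 to 8 had a median change of -0.17. After quantile normalization the change of DDIT3 was -0.02 (limma adjusted p = 0.790). The fall of DDIT3 thus depends on how the arrays are scaled.

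TRIB3, a pseudokinase induced by ATF4 and CHOP that feeds back on both, fell on both of its probe sets. The brighter one read 9.51, 9.52 and 9.51 on the Ctrl arrays and 9.27, 9.23 and 9.23 on the CSF3 arrays, a change of -0.27 ± 0.048 (1.20-fold lower, limma adjusted p = 0.00204). The dimmer one read 7.66, 7.70 and 7.56 against 6.98, 6.89 and 7.01, a change of -0.68 ± 0.066 (limma adjusted p = 0.000108 over all probe sets). The groups were apart on both, but the sizes differed: the gap between the 2 probe sets within an array was 1.82 to 1.94 on the Ctrl and 2.22 to 2.34 on the CSF3 arrays (exact two-sided permutation p = 0.1, the smallest possible). The brighter probe set changed by -0.17 after quantile and -0.14 after cyclic loess normalization (limma adjusted p of 0.0138 and 0.0282), and still passed. Thus ATF4 read higher while DDIT3 and TRIB3, a pair of its transcriptional targets, read lower in the deposited values, with DDIT3 close to 0 after either normalization.

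CHAC1, an enzyme that breaks down glutathione and is among the genes most responsive to ATF4, rose on its brighter probe set. This read 6.61, 6.49 and 6.56 on the Ctrl arrays and 7.02, 6.98 and 7.04 on the CSF3 arrays, a change of 0.46 ± 0.054 (1.37-fold, limma adjusted p = 0.000311). The dimmer probe set read 4.65, 4.75 and 4.57 against 4.62, 4.44 and 4.70, where the groups overlap, and changed by -0.07 ± 0.086 (limma adjusted p = 0.477 over all probe sets). The difference between the 2 probe sets was 1.74 to 1.99 on the Ctrl and 2.34 to 2.55 on the CSF3 arrays (exact two-sided permutation p = 0.1). The rise of CHAC1 thus rests on 1 of its 2 probe sets, and their mean changed by 0.19 (limma adjusted p = 0.0130). After quantile normalization the brighter one changed by 0.70.

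Of the 3 enzymes of amino acid synthesis, ASNS and PSAT1 read lower and PHGDH higher. ASNS makes asparagine, and its promoter holds the second match shown above. Its brightest probe set read 10.39, 10.40 and 10.38 on the Ctrl arrays and 10.35, 10.28 and 10.29 on the CSF3 arrays. The groups were apart by a small margin, and the change of -0.09 ± 0.049 was not called (limma adjusted p = 0.152). Of its 4 probe sets 2 fell, by 0.18 ± 0.057 and 0.23 ± 0.056 (limma adjusted p of 0.0272 and 0.00754), and the other two changed by -0.09 and -0.06. After quantile normalization none of the 4 was called, and the brightest turned to 0.02.

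PSAT1, the aminotransferase of the second step of serine synthesis, has 8 probe sets, the most of any member. The brightest read 8.95, 8.97 and 8.95 on the Ctrl arrays and 8.92, 8.73 and 8.83 on the CSF3 arrays, a change of -0.13 ± 0.063 that was not called (limma adjusted p = 0.0984). The first CSF3 array lay close to the Ctrl arrays, and without it the change was -0.18 and passed (limma adjusted p = 0.0283). The 7 other probe sets all fell, by between 0.23 and 0.67. The one with the smallest p read 8.29, 8.27 and 8.32 against 7.69, 7.70 and 7.64, a change of -0.62 ± 0.055 (limma adjusted p = 7.5e-05 over all probe sets). Of the 8 probe sets the brightest changed least, and the mean of all of them changed by -0.42 (limma adjusted p = 0.000199). After quantile normalization 5 of the 8 were still called lower, and after cyclic loess normalization the brightest turned to 0.02.

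PHGDH, the enzyme of the first step of the same route, read 8.57, 8.50 and 8.52 on the Ctrl arrays and 8.70, 8.71 and 8.63 on the CSF3 arrays. The groups did not overlap, and the change of 0.15 ± 0.052 passed the test closely (limma adjusted p = 0.0326). Leaving out any 1 of 5 of the 6 arrays ended this call, with limma adjusted p-values from 0.0552 to 0.107 and changes from 0.14 to 0.17. The exception was the third CSF3 array. After cyclic loess normalization the change was 0.32. The enzymes of consecutive steps of serine synthesis thus read in opposite directions in the deposited values, PHGDH higher and PSAT1 lower.

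**Figure D2:**
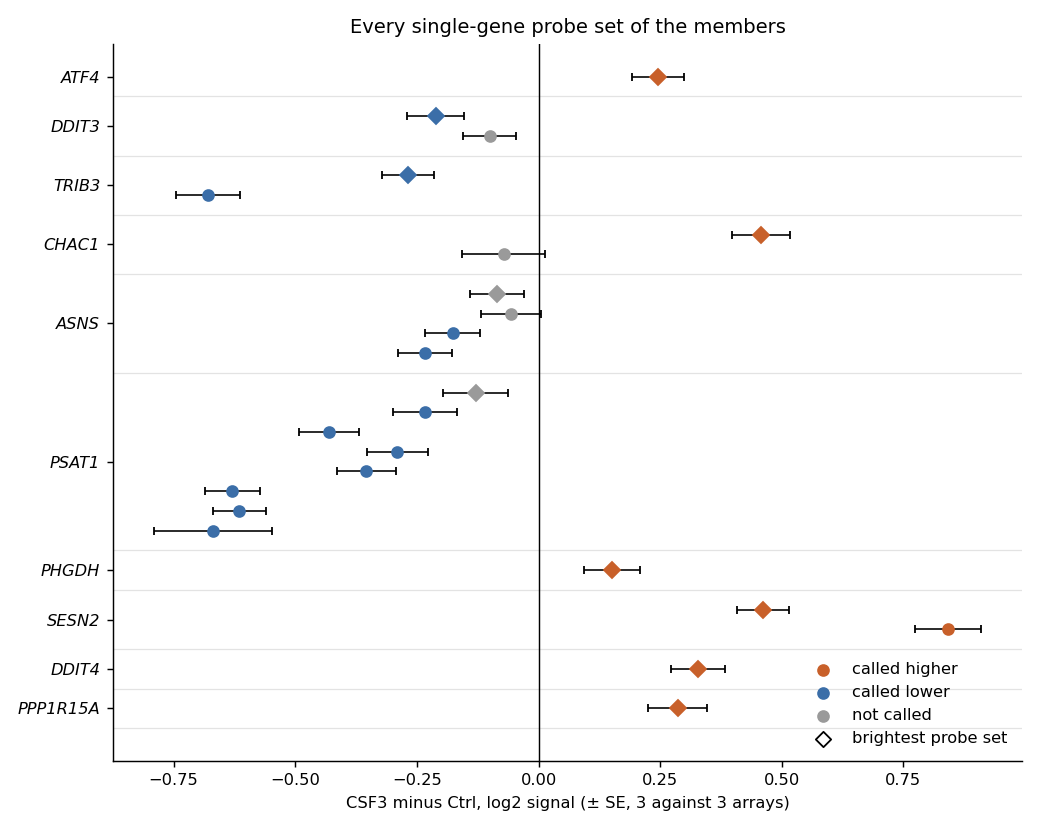
Change from Ctrl to CSF3 (log2 signal, ± SE) of all 24 probe sets of the members, from the fit over all single-gene probe sets, with the brightest probe set of each gene as a diamond and the call as the colour. The 8 probe sets of PSAT1 all lie left of 0, both of SESN2 lie right of it, and those of CHAC1 are split.

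SESN2 and DDIT4, which encode inhibitors of the growth kinase mTORC1, both rose. SESN2 binds leucine and holds back GATOR2, and DDIT4 (REDD1) acts through the TSC complex. The change of SESN2 was close in size to that of CHAC1, which was the larger after quantile normalization (0.70 against 0.60). Its brighter probe set read 8.60 on each of the 3 Ctrl arrays and 9.10, 9.05 and 9.05 on the CSF3 arrays, a change of 0.46 ± 0.048 (1.38-fold, limma adjusted p = 0.000177). The dimmer one read 6.83, 6.90 and 6.96 against 7.65, 7.80 and 7.76, a change of 0.84 ± 0.068 (limma adjusted p = 5e-05 over all probe sets). Both probe sets kept the groups apart. DDIT4 read 8.18, 8.19 and 8.24 on the Ctrl arrays and 8.55, 8.55 and 8.49 on the CSF3 arrays. Here too all CSF3 values were above all Ctrl values, with a change of 0.33 ± 0.051 (1.26-fold, limma adjusted p = 0.00104), or 0.51 after cyclic loess normalization. The median change of genes with a mean signal of 8 to 9 was -0.11.

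PPP1R15A encodes GADD34, which brings protein phosphatase 1 to eIF2 and ends the block of translation. It read 8.55, 8.54 and 8.48 on the Ctrl arrays and 8.74, 8.87 and 8.81 on the CSF3 arrays. The groups were apart, with a change of 0.29 ± 0.056 (1.22-fold, limma adjusted p = 0.00307), or 0.45 after cyclic loess normalization. Its sole probe set is of the _x_at kind, like those of ATF4 and the brightest of ASNS.

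Over all 24 probe sets of the members, 7 rose, 12 fell and 5 were not called, against 36.7% rising and 28.8% falling of all single-gene probe sets. This balance is the reverse of that by gene, because PSAT1 alone gave 7 of the 12 falls, with TRIB3 and ASNS giving 2 each and DDIT3 1. The members' probe sets are also bright, with mean signals of 4.62 to 10.88, against a median of 3.72 over all single-gene probe sets. Among genes above the median level 27.1% rose and 46.8% fell. For 0 of the 10 genes were probe sets called in both directions. Probe sets of 1 gene share its transcripts and are not independent measurements.

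**Figure D3:**
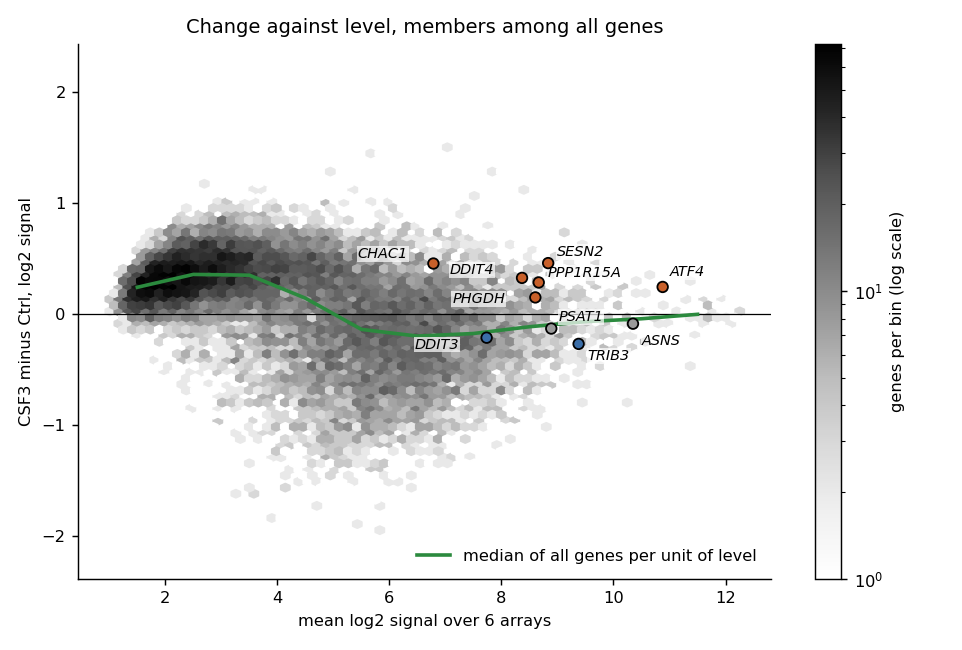
Change from Ctrl to CSF3 (log2 signal) against the mean log2 signal over 6 arrays, with all 18132 genes as grey bins (darker means more genes, log scale), the median of all genes in steps of 1 of level as a green line and the 10 members as coloured points. The green line falls from 0.36 for genes of level 2 to 3 to -0.20 for those of 6 to 7, and the 6 members that rose lie above it while DDIT3 lies close to it.

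The pattern of ATF4 was shared with many genes. By Euclidean distance over the 6 arrays, after subtraction of each gene's Ctrl mean, the 3 genes most like ATF4 were TBC1D10B, ATP5MG and DRAP1, with changes of 0.25, 0.26 and 0.23 and distances of 0.031 to 0.033. Within a distance of 0.2 lay 1508 genes. The 3 most like DDIT3 were MTERF3, TADA3 and M6PR, with changes of -0.23, -0.22 and -0.23, and 822 genes lay within 0.2. None of these 6 genes is a member.

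Paralogs of the members were read by the same fit. Of 8 measured, 4 rose and 0 fell by limma, beside 45.4% and 27.1% of all genes. Also at an unadjusted p under 0.05 and without moderation of the variances 0 fell, while 1 fell after quantile normalization. TRIB1 rose by 0.66 ± 0.050 (limma adjusted p = 4.86e-05), from between 7.88 and 7.89 on the Ctrl arrays to between 8.50 and 8.58 on the CSF3 arrays, whereas TRIB3 fell. TRIB2 changed by -0.22 ± 0.097 and did not pass. PPP1R15B, the constitutive partner of phosphatase 1 at eIF2, rose by 0.48 ± 0.082, as PPP1R15A did. ATF5 and DDIT4L rose by 0.43 ± 0.10 and 0.60 ± 0.12 at low signals (means of 3.92 and 2.60 on the Ctrl arrays), where without detection calls a transcript cannot be told from background, and ATF5 did not pass with the mean of its probe sets. SESN1 (0.10 ± 0.068), SESN3 (-0.11 ± 0.079) and CHAC2 (0.10 ± 0.061) did not pass, and SESN3 and CHAC2 were also dim. For SESN1 the mean of its 2 probe sets fell, so it has no settled direction.

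Upstream of ATF4, a list of eIF2 kinases and of eIF2 and eIF2B subunits mostly read lower. It also holds EIF2A, GCN1 and IMPACT, which are neither, and EIF2A and IMPACT are among those that fell. Of the 15 genes of this list, 10 fell, 5 did not pass and 0 rose by limma, with a median change of -0.30. At an unadjusted limma p under 0.05, 11 were lower and 0 higher. Without moderation of the variances 0 rose as well. Of these 15 genes 14 lie above the median level, where 27.1% of all genes rose and 46.8% fell (45.4% and 27.1% at any level). After quantile normalization 6 of the 15 fell and 4 rose. The shares of all genes, here and for the lists below, are those of the deposited values. None is given for the normalized values, so counts after normalization have no such share beside them. EIF2AK4 (GCN2), the sensor of uncharged tRNA, fell by 1.02 ± 0.072 on its brighter probe set but gave 0.62 on the other, so its direction is not settled. EIF2AK3 (PERK), the sensor in the endoplasmic reticulum, fell by 0.43 ± 0.070 (-0.17 and not called after quantile normalization), and its 3 probe sets ranged from -1.12 to -0.43. EIF2AK1 (HRI), the sensor of haem, fell by 0.40 ± 0.053, though its 8 probe sets ranged from -0.97 to 0.06. EIF2AK2 (PKR), the sensor of double-stranded RNA, changed by 0.13 ± 0.091 and did not pass. Its other probe set gave -0.19, and after quantile normalization the brighter one passed at 0.40, so its direction is not settled either. IMPACT, an inhibitor of GCN2, fell by 1.10 ± 0.067 at a dim signal, and EIF2B3, a subunit of the exchange factor eIF2B, fell by 0.48 ± 0.054.

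Of the list around the eIF2 phosphatase, 2 of 7 rose and 2 fell (4 and 1 after quantile normalization), where 27.1% of all genes above the median level rose and 46.8% fell. DNAJC3, an inhibitor of PERK, fell by 1.42 ± 0.055, with its 3 probe sets ranging from -1.42 to -0.10. PPP1CB, a catalytic subunit of phosphatase 1, fell by 0.29 ± 0.047 (not called after quantile normalization), with its 6 probe sets ranging from -1.29 to 0.45. EIF4EBP1, a translation inhibitor and ATF4 target, rose by 0.17 ± 0.051 (limma adjusted p = 0.0188), a call lost without any 1 of the 3 Ctrl arrays. Among the 8 genes of the endoplasmic reticulum sensors, 6 fell and 1 rose, with a median of -0.44, and 7 of the 8 lie above the median level, where 46.8% of all genes fell. XBP1, the factor spliced by IRE1, fell by 0.68 ± 0.049, and the site proteases MBTPS2 and MBTPS1, which activate ATF6, fell by 1.02 ± 0.085 and 0.68 ± 0.073. On their second probe sets MBTPS2 gave 0.02 and MBTPS1 -0.07. In the mitochondrial arm, which signals to ATF4 through HRI, 5 of 8 fell and 0 rose by limma. At an unadjusted limma p under 0.05, 6 were lower and 0 higher. Without moderation of the variances 0 rose as well, whereas 2 rose after quantile normalization. All 8 lie above the median level, where 27.1% of all genes rose and 46.8% fell. OMA1, the protease that starts this signal, fell by 0.75 ± 0.079 and LONP1, a matrix protease, by 0.51 ± 0.052. The 3′ minus 5′ signals of GAPDH (0.68 against 0.31) and of ACTB (1.94 against 1.34) were also higher on the CSF3 arrays. Their part in the changes of these lists was not tested.

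The bZIP partners of ATF4 were divided, with 6 of 13 higher and 4 lower, or 8 and 1 after either normalization. In the deposited values 45.4% of all genes rose and 27.1% fell, and 27.1% and 46.8% of those above the median level, where 11 of the 13 lie. ATF3, whose promoter stretch is shown above, rose by 1.28 ± 0.051, from between 7.14 and 7.20 on the Ctrl arrays to between 8.42 and 8.49 on the CSF3 arrays, a larger change than that of any member. Its 7 probe sets ranged from 0.34 to 1.28, and their mean changed by 0.72. FOS, an immediate early gene, rose by 1.46 ± 0.055, and CEBPD by 0.55 ± 0.053. CEBPB rose by 0.35 ± 0.056 on its single probe set. CEBPG, a dimer partner of ATF4, fell by 0.44 ± 0.049 on its brighter probe set and gave 0.90 on the other, so it has no settled direction.

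**Figure D4:**
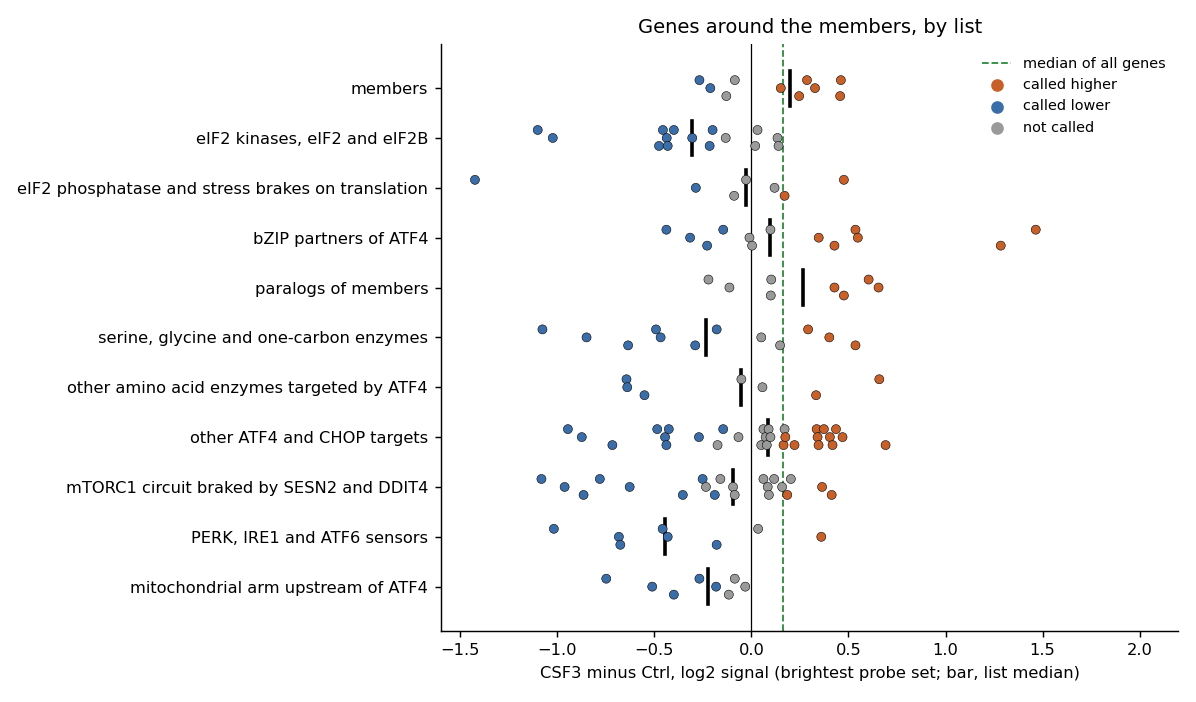
Change from Ctrl to CSF3 (log2 signal, brightest probe set) of each member and of each gene in the lists around them, 1 point per gene, with the list median as a black bar, the call as the colour and the median of all genes (0.16) as a dashed line. The medians of the eIF2 list (-0.30) and of the list around the endoplasmic reticulum sensors (-0.44) lie left of 0, and FOS and ATF3 stand farthest right.

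Among the further genes of serine, glycine and one-carbon metabolism, 3 of 12 rose and 7 fell, with a median of -0.23, and 8 of the 12 lie above the median level, where 27.1% of all genes rose and 46.8% fell. PSPH, the enzyme of the last step of serine synthesis, rose by 0.40 ± 0.074 on its brightest probe set, with its 3 probe sets ranging from -0.20 to 0.40 and their mean not called. SHMT2 and MTHFD2, the mitochondrial enzymes that pass on the carbon of serine, fell by 0.64 ± 0.056 and 0.29 ± 0.048 with all of their probe sets below 0. The cytosolic MTHFD1 fell by 1.08 ± 0.072. The mitochondrial MTHFD1L fell by 0.85 ± 0.062, with probe sets from -1.07 to 0.25. Of 7 measured genes of other amino acid enzymes, 2 rose and 3 fell (4 and 3 after quantile normalization), and 6 of the 7 lie above that level. ALDH18A1, for proline, and ASS1, for arginine, both fell by 0.64 (SE 0.049 and 0.061), and BCAT1 rose by 0.66 ± 0.10 at a dim signal.

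The list of other ATF4 and CHOP targets was divided, with 12 of 30 higher, 9 lower and a median of 0.08, beside 45.4% and 27.1% of all genes. Of the 30, 21 lie above the median level, where 27.1% of all genes rose and 46.8% fell. The 12 that rose changed by 0.17 to 0.69. Among them were SLC7A3, a cationic amino acid transporter (0.69 ± 0.12, at a dim signal), and ADM2, a secreted peptide of the calcitonin family (0.47 ± 0.058), both chosen for naming after their values were seen. SLC7A11, the cystine transporter, fell by 0.95 ± 0.052 on its brightest probe set, but its 3 probe sets ranged from -1.23 to 0.40. SLC38A2, an amino acid transporter, fell by 0.87 ± 0.050 and WARS1, a tRNA synthetase, by 0.72 ± 0.053, with the 4 probe sets of WARS1 ranging from -1.75 to 0.08. GDF15, a secreted stress hormone, changed by 0.09 ± 0.054 (limma adjusted p = 0.172) and NUPR1, a stress-induced chromatin protein, by 0.06 ± 0.10 (limma adjusted p = 0.598), and neither passed. The 5 probe sets of GDF15 ranged from -0.67 to 0.23, and its brightest passed at 0.32 after quantile and after cyclic loess normalization (limma adjusted p of 0.00111 and 0.00112). Of 21 measured genes of the mTORC1 circuit on which SESN2 and DDIT4 act, 3 rose and 8 fell, with a median of -0.09. The list holds parts and activators of mTORC1 together with its inhibitors, so these counts give no direction of its activity. Of the 21, 18 lie above the median level, where 27.1% of all genes rose and 46.8% fell. After quantile normalization 10 rose and 5 fell. TSC1, of the inhibitory TSC complex, fell by 1.08 ± 0.069, MTOR by 0.96 ± 0.099 and MIOS, of GATOR2, by 0.86 ± 0.073. The probe sets of TSC1 ranged from -1.08 to 0.23 and those of MTOR from -0.96 to 0.01.

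Some genes stand in more than one list, such as EIF2AK1 and EIF2AK3, and are counted in each. Over the 123 different measured genes of the lists, 31 rose (25.2%) and 51 fell (41.5%), with a median of -0.09. Of the 123 genes, 98 lie above the median level, and the shares are near those of all genes there, of which 27.1% rose and 46.8% fell. After quantile normalization 48 rose and 37 fell, so which direction is the more frequent depends on how the arrays are scaled. The 6 rises of the members were called after quantile and after cyclic loess normalization as well. After these normalizations the median change was 0.31 and 0.30 for the members, against 0.13 and 0.11 over all genes. The share of all genes called after them is not given here.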

How the data were processed

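The authors deposited 1 value per probe set and array, as log2 signals as far as the values show. The sources used here do not give base, background correction, summarisation or normalization. Since the base is unstated, another one would change each fold but no test. Scanner files and detection calls were not used here. Of 49395 probe sets, 44988 carry 1 gene in the platform annotation, and those with several genes (1832) or none (2473) and the 102 controls were left out. Of the members, 1 further probe set shared with another gene was left out. A gene was read by its brightest probe set (by mean signal). CSF3 minus Ctrl was fitted in limma 3.58.1 (R 4.3.3, lmFit and eBayes) over all 18132 genes and, separately, over all single-gene probe sets, with Benjamini-Hochberg adjustment over each whole table and a threshold of 0.05. Changes are log2 differences ± SE of 3 against 3 arrays, whose number limits the precision. "Rose" and "fell" are used for changes past that threshold. The fit was tested on simulated data. The alternatives were quantile and cyclic loess normalization, subtraction of array medians, a filter on the 30% dimmest genes, the mean of a gene's probe sets, the brightest one not ending in _x_at or _s_at, trend and robust eBayes, weights per array, a block for the replicate number, a test with unmoderated variances, a change of at least 1, and leaving out each array. Genes with only _x_at or _s_at probe sets kept their brightest one where these endings were to be avoided. The members and lists were chosen with earlier results of these data known. Named by rule were all members, their paralogs, set genes of the pathway, and the 3 called genes of each other list with the largest change and no overlap between groups. EIF2A, GCN1 and ATF6 were named after their values had been seen.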

Additional observations from a re-analysis of the deposited data

Results flagged for a closer look

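Control probe sets, which measure transcripts added to each sample and no gene of the cells, differed between the groups. The array medians of the 18 hybridisation controls were higher on the CSF3 arrays by 1.53 (log2), at 6.82 ± 0.069 on Ctrl and 8.36 ± 0.052 on CSF3 arrays (SD, n = 3). Those of the 24 poly-A controls for dap, lys, phe and thr were higher by 1.52, at 4.09 ± 0.25 and 5.61 ± 0.027, and by 1.64 with the trp probe sets included (27 in all), which were left out after the values had been seen. Exact two-sided permutation tests gave p = 0.1 for either, which is the lowest value in this design, and both differences exceed the change of every member. Their part in the members' changes was not tested.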

How the results depend on the processing

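Over the 16 alternatives that give a change per gene, 144 of the 160 values of the members kept their call or lack of one, 8 lost it (DDIT3 under quantile and cyclic loess normalization, PHGDH under the replicate block and without 5 of the arrays) and 8 gained it (ASNS and PSAT1). Some of the 144 repeat the main change by construction. ATF4, PHGDH, DDIT4 and PPP1R15A have 1 probe set, so the mean of all probe sets is the same value. Avoiding _x_at and _s_at probe sets altered the change of ASNS and PSAT1 only. By gene, 1 member was called lower after quantile normalization and 1 after cyclic loess normalization (DDIT3 with -0.02 and -0.006), and 4 with the mean of all probe sets, with the brightest probe set not ending in _x_at or _s_at and with trend and robust eBayes. DDIT3, ATF4 and PPP1R15A have only probe sets with these endings and kept their brightest one there. The lower call of DDIT3 (-0.21) in that setting is thus from an _s_at probe set. By probe set, 7 of the members' were called lower after either normalization. Of the other pathway genes 48 were higher after quantile normalization. With the 30% dimmest left out, 4767 genes and 10326 probe sets were higher. With a change of at least 1 required, 0 members and 0 of their probe sets were called in either direction, against 2 other pathway genes higher and 6 lower, 117 genes higher and 611 lower, and 231 probe sets higher and 2001 lower. Directions reversed for SESN1 (-0.32) and CEBPG (0.23) with the mean of all probe sets, and EIF2AK1 (0.058), EIF2AK2 (-0.19), EIF2AK4 (0.62) and SLC7A11 (0.40) with the brightest probe set not ending in _x_at or _s_at. These 2 settings read other probe sets of the gene by construction; for the rest the cause was not tested. Without 1 array, 5 to 6 members were higher and 2 to 3 lower. Deviations of same-numbered arrays correlated at 0.027 to 0.038, too weakly to pair them, although each array matched its own number best. The replicate block gave 5 members higher and 2 lower and ended the call of PHGDH (limma adjusted p = 0.0631). Dim genes without detection calls limit the lists more than the members, all of which lie above the 83rd percentile of level.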
